A study of Mus musculus with 6 samples.

Results

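The large subunit of the mitochondrial ribosome was followed through the 47 genes whose symbol starts with Mrpl and a digit, out of 11947 genes tested, in mouse Th17 cells with and without a conditional deletion of Stim1. All 47 Mrpl rows of the table had a mean of at least 10 normalised reads over the 6 libraries, and the lowest mean was 371.7, so no member lay just outside that limit. RNA was sequenced from 2 groups of 3 libraries each. The Stat3C group came from Stat3CSTOPfl/fl CD4-Cre mice, and the Stim1KO Stat3C group from Stim1fl/fl Stat3CSTOPfl/fl CD4-Cre mice. Both were C57BL/6. Both therefore carried Stat3C, a hyperactive form of STAT3 released by removal of a STOP cassette, together with Cre under control elements of Cd4, which act from the CD4+ CD8+ stage of the thymus and so also in the CD8 lineage. The difference between the groups was the floxed Stim1, which encodes the endoplasmic reticulum calcium sensor that opens ORAI channels. Naive CD4 T cells of either genotype were given antibodies to CD3 and CD28, IL-23, IL-1b and IL-6 over 2 days, a mixture that gives pathogenic Th17 cells. The series asks how calcium signalling affects mitochondrial metabolism in such cells. The sources used here do not give the age of the mice or say whether each library was a separate mouse or culture, so p-values measure the spread between these libraries, which may be technical.

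Mitochondria have their own ribosome, built from an RNA core that is transcribed from mitochondrial DNA and from proteins that are all encoded in the nucleus, made in the cytosol and imported. Its only products are a small set of hydrophobic subunits of respiratory complexes I, III and IV and of ATP synthase. The large subunit joins amino acids at the peptidyl transferase centre and passes the chain through an exit tunnel to the inner membrane, and the small subunit, with the Mrps proteins, reads the mRNA. Many Mrpl proteins descend from bacterial ribosomal proteins, and others exist only in mitochondria. In T cells, activation is accompanied by growth of the mitochondrial translation machinery.

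Libraries held 16009755 to 51347367 reads, a 3.21-fold range. Every Stim1KO Stat3C library (16009755, 20660749 and 22519269 reads) was shallower than every Stat3C library (51347367, 43532417 and 23092044), so depth went with genotype. Stim1 itself had 1999, 1969 and 1931 normalised reads in Stat3C, against 811, 794 and 687 in Stim1KO Stat3C (log2 fold change -1.37, adjusted p = 0.000287), which fits the labels. Replicate 3 of each group differed from replicates 1 and 2 in Xist, the RNA of the inactive X chromosome (8362 and 11549 against 1.37 to 3.53), and in the Y-linked Ddx3y (0 and 0.995 against 1008 to 1362). Stat3C replicate 2 also stood apart: its counts differed from those of its group by a chi-square per degree of freedom of 53.8 and 36.5, against 10.4 for the other Stat3C pair, and limma's quality weight for it was 0.369, the lowest of the 6. The labels mention neither difference, and member values are given within each Xist set, and with Stat3C replicate 2 left out, further on. Of the 6 genes taken as CD4 T cell markers 5 were higher in Stim1KO Stat3C: Cd3d, Cd3e, Cd3g, Cd2 and Cd5. Cd4 itself was not called (log2 0.30, adjusted p = 0.0529 by limma). The summed level of the 6 was 42369 to 45801 in Stat3C and 57745 to 62580 in Stim1KO Stat3C. Of the 7 Th17 markers 3 were lower, among them Il17a and Il17f, and their sum ran from 15505 to 20307 in Stat3C and from 5069 to 6483 in Stim1KO Stat3C.

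Several of the genes that the results turn on share short letter patterns around their start. RefSeq promoter windows (build GRCm38.p6, 250 bases before to 50 after the start) were found for 41 of the 47 members. The letters GCATGCGC, the core of sites bound by NRF1, a factor known for driving nuclear genes of mitochondrial proteins, were searched on both strands and occurred in 7 of the 41 (17.1%), against 5.72% of the 8938 promoters of genes tested and 2.80% of all 27025. Windows of the same length held CCGGAAGT, an ETS pattern bound by GABP, in 7 members (17.1%, against 8.77% and 4.0%), and AAGATGGC, a YY1 pattern, in 6 (14.6%, against 5.05% and 2.88%). The ETS matches of Mrpl33 and Mrpl52 and the YY1 matches of Mrpl35, Mrpl37, Mrpl42 and Mrpl49 did not end before the start. The E-box CACGTG, bound by MYC, was in 4 members (9.76%, against 10.5% and 7.24%), and TATAAA in 2 (4.88%, against 6.68% and 14.2%). The first 3 patterns do not overlap one another in letters, and at least 1 of them was in 18 of the 41 members. Of the 13 members with a promoter that were lower in Stim1KO Stat3C, 7 held at least 1. The share of all tested promoters with any of the 3 was not computed. Whether lower members differed from the others in this was not tested. These matches are letters and not sites of binding, which was not measured.

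The following stretches, from RefSeq, are shown because the first 4 set called genes of opposite direction and a gene at about 0 beside one another under the same letters, and the last 2 are the ETS matches of Mrpl51 and Mrpl43, both lower. Each is written 5′ to 3′ on the strand of its gene, and capitals mark the NRF1 letters, on either strand, in the first 4 and the ETS letters in the last 2.
Mrpl33, chr5:31613913-31613950, plus strand: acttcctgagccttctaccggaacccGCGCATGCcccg
Mrpl22, chr11:58171605-58171663, plus strand: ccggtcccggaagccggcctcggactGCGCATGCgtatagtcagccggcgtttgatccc
Mrpl17, chr7:105811088-105811124, minus strand: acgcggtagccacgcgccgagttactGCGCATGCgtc
Mrpl10, chr11:97041422-97041481, plus strand: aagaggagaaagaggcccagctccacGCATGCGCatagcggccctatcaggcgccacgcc
Mrpl51, chr6:125192084-125192143, plus strand: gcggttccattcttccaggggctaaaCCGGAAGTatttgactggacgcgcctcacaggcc
Mrpl43, chr19:45006443-45006480, minus strand: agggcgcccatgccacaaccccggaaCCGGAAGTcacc
The NRF1 letters thus stood before the RefSeq start of Mrpl33, the member that was higher in Stim1KO Stat3C, and of Mrpl22 and Mrpl17, which were lower. They also stood before that of Mrpl10, whose log2 fold change was -0.01. By the GENCODE gene positions given further on, the letters of Mrpl33 and Mrpl17 lie within the transcript. The ETS letters were likewise found in members of every kind: in Mrpl3, which was also lower, in Mrpl33, which was higher, and in Mrpl27, Mrpl18 and Mrpl52, which were not called (-0.27, -0.10 and -0.04). The NRF1 letters began 12 bases before the RefSeq start of Mrpl33, 11 before that of Mrpl17, 33 before that of Mrpl22 and 134 before that of Mrpl10. The transcripts of the NRF1, GABP and YY1 factors themselves had log2 fold changes of 0.04 for Nrf1, 0.00 for Gabpa and -0.05 for Yy1 (adjusted p = 0.739, 0.982 and 0.700).

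With Stim1 deleted, 15 of the 47 genes of the large subunit were lower (4.96% of all genes tested were), 1 was higher, and the other 31 were not called, with log2 fold changes of -0.37 to -0.01. Of the 47 genes, 46 had a log2 fold change below 0, against 50.2% of all genes tested, and the median was -0.23 (middle 50% from -0.30 to -0.16), against a median of 0.00 over all genes. At an adjusted p under 0.05, 16 members were called, where 13.6% of all genes tested were called. At an unadjusted p under 0.05 by limma, 31 members were lower and 1 higher. Over all 11947 genes tested, 1677 were lower and 2036 higher at that cut. The gene that was higher was Mrpl33, where 8.62% of all genes tested were higher. All 3 Stim1KO Stat3C values lay below all 3 Stat3C values for 29 members (16.4% of all genes), and above them for 1 (19.2%). No member changed by more than 0.5 on the log2 scale, the range being -0.42 to 0.26, and the median standard error was 0.077. Fold changes are differences of log2(value + 1), Stim1KO Stat3C minus Stat3C, from limma, with p-values adjusted over all 11947 genes. In such bulk RNA, fewer cells of a type and less RNA per cell cannot be told apart.

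**Figure D1:**
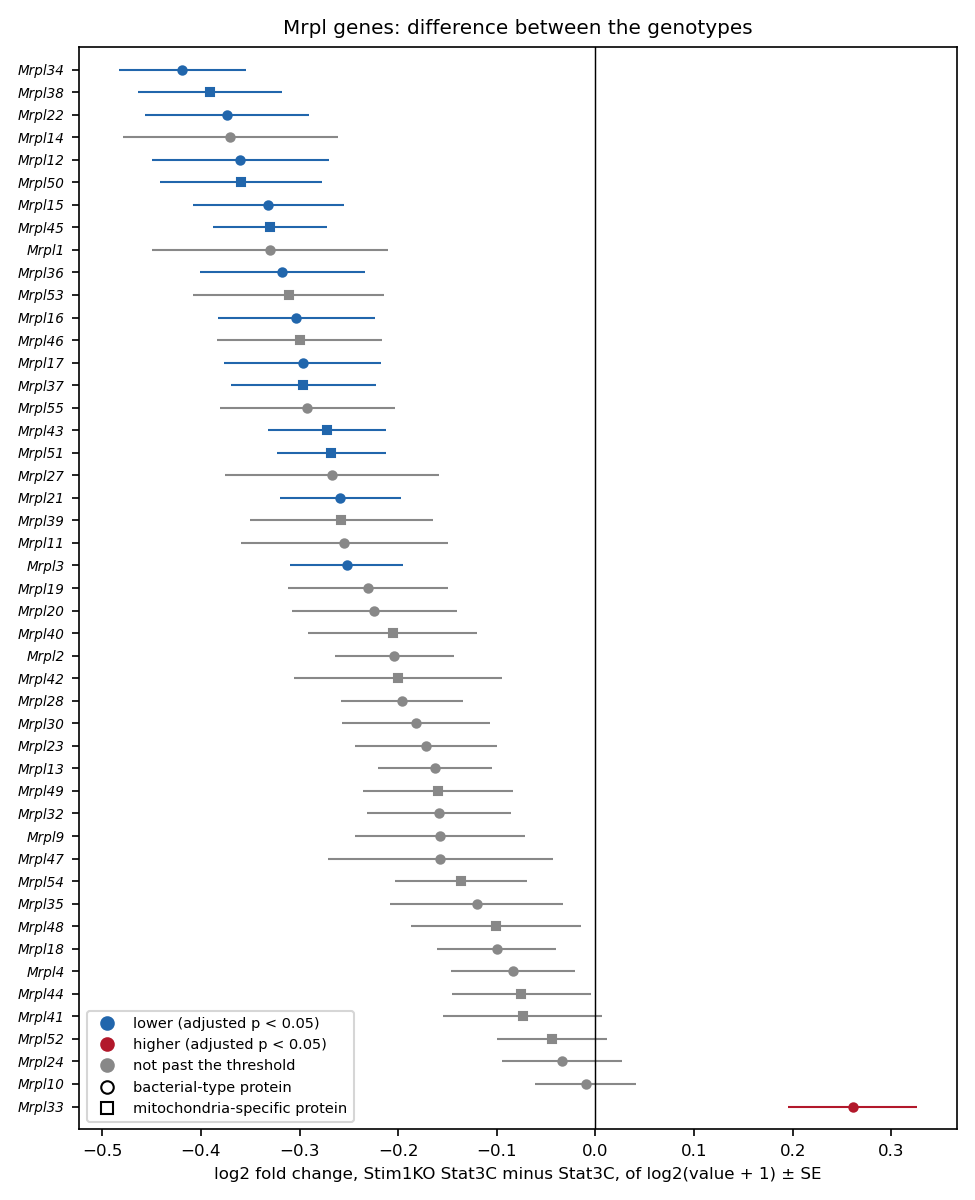
Log2 fold change (horizontal axis, log2 units, Stim1KO Stat3C minus Stat3C) of each of the 47 Mrpl genes (vertical axis, ordered by size) with its standard error as a bar, coloured by call at an adjusted p under 0.05. Only Mrpl33, at 0.26, lies above 0, and the 15 genes called lower run from -0.42 for Mrpl34 to -0.25 for Mrpl3.

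The count of calls depended on single libraries much more than the median did. Leaving out Stat3C replicate 1, Stat3C replicate 3, Stim1KO Stat3C replicate 1 or Stim1KO Stat3C replicate 2 left 2 members called lower in each case. Without Stat3C replicate 2, the library that stood apart, 26 were called, with a median of -0.26. Over all genes tested, 593 were called lower with all 6 libraries. That count fell to 140, 155, 197 and 214 in the fits with 2 members called, in the order named. It rose above 593 without Stat3C replicate 2, so the swing in calls was not particular to the Mrpl genes. The median of the members stayed between -0.28 and -0.18 when each library was left out in turn.

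The peptidyl transferase centre and the core around it, the part that catalyses the bond between amino acids, held 11 members, and 4 of them were lower: Mrpl15, Mrpl16, Mrpl21 and Mrpl3. All 11 had a log2 fold change below 0, with a median of -0.25, and in 9 of the 11 the groups did not overlap. Mrpl15 (uL15m), on chromosome 1 at 4773211 to 4785739 of GRCm38, stood at 2083, 1883 and 2022 normalised reads in Stat3C and at 1437, 1663 and 1665 in Stim1KO Stat3C. Its lowest Stat3C library lay above its highest Stim1KO Stat3C library, and the log2 fold change was -0.33 ± 0.08 (SE, adjusted p = 0.0280). Mrpl16 (uL16m), which lies by the A-site tRNA and is on chromosome 19 at 11770391 to 11774960, had 1270, 1270 and 1234 normalised reads in Stat3C and 983, 948 and 1135 in Stim1KO Stat3C. The Stat3C values were nearly level, replicate 3 was the high one of Stim1KO Stat3C, and the groups stayed apart (log2 -0.30 ± 0.08 SE, adjusted p = 0.0422). Mrpl21 (bL21m) fell from 1071 ± 7.13 to 895 ± 27.7 (SD, n = 3), a log2 fold change of -0.26, and Mrpl3 (uL3m) from 1953 ± 79.2 to 1639 ± 36.5, -0.25, with adjusted p-values of 0.0299 and 0.0255 by limma. Exons of Mrpl21 share 117 bases with Ighmbp2 on the opposite strand.

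Mrpl14 (uL14m), the member of lowest level, had 384, 459 and 416 normalised reads in Stat3C and 296, 349 and 327 in Stim1KO Stat3C. Its groups did not overlap and its log2 fold change of -0.37 was among the largest, yet the standard error was 0.11 and the adjusted p 0.0604. The rest of the core, Mrpl2, Mrpl13, Mrpl19, Mrpl20, Mrpl27 and Mrpl28, ran from -0.27 to -0.16 with adjusted p-values of 0.0609 to 0.141. Each of the 11 core members had an unadjusted p under 0.05, where 1677 of all 11947 genes tested were lower at that cut.

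The stalks move tRNA and factors in and out of the ribosome. Mrpl12 (bL12m), on chromosome 11 at 120484613 to 120489065, forms the flexible stalk that recruits the GTPases of translation. It had 5134, 4522 and 5516 normalised reads in Stat3C and 3747, 3719 and 4345 in Stim1KO Stat3C. The lowest Stat3C library, replicate 2, lay just above the highest Stim1KO Stat3C library, replicate 3. Its log2 fold change was -0.36 ± 0.09 (SE, adjusted p = 0.0354), and its exons share 200 bases with Gm16755 on the opposite strand. Mrpl10 (uL10m), the protein that anchors Mrpl12 to the ribosome, stood at 1897, 1856 and 1896 in Stat3C and at 1867, 1839 and 1906 in Stim1KO Stat3C. These groups overlapped fully (log2 -0.01 ± 0.05 SE, adjusted p = 0.911). Mrpl10 was chosen for this comparison after its values were seen, and the difference between the 2 fold changes was not tested. Mrpl11 (uL11m), at the base of the same stalk, had -0.25 (adjusted p = 0.145), and Mrpl1 (uL1m), of the L1 stalk that guides spent tRNA out, -0.33 (adjusted p = 0.108) with no overlap of groups.

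Of the 7 members that line or surround the exit tunnel, 3 were lower, and the median was -0.17. Mrpl22 (uL22m), which reaches into the tunnel wall and is on chromosome 11 at 58171661 to 58179565, had 823, 802 and 863 normalised reads in Stat3C against 582, 660 and 681 in Stim1KO Stat3C, where replicate 1 was the low one (log2 -0.37 ± 0.08 SE, adjusted p = 0.0244). Mrpl17 (bL17m), by the tunnel exit and on chromosome 7 at 105803206 to 105811099, had 2022, 1879 and 2092 against 1474, 1654 and 1758 (log2 -0.30 ± 0.08 SE, adjusted p = 0.0444). Both genes showed the same order of libraries, with no overlap between groups. Mrpl45, a mitochondria-specific protein that holds the tunnel exit against the inner membrane, is on chromosome 11 at 97315716 to 97329920. Its values were 2752, 2617 and 2898 in Stat3C, with 2142, 2183 and 2246 in Stim1KO Stat3C, the latter nearly level (log2 -0.33 ± 0.06 SE, adjusted p = 0.0102). Mrpl4, Mrpl23, Mrpl24 and Mrpl47 were not called and ran from -0.17 to -0.03.

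The central protuberance, which touches the small subunit and the tRNAs, had 7 members, of which 1, Mrpl38, was lower. The median of the 7 was -0.21. Mrpl38, specific to mitochondria and on chromosome 11 at 116131817 to 116138868, had 1642, 1505 and 1716 normalised reads in Stat3C and 1206, 1188 and 1313 in Stim1KO Stat3C. The 3 Stim1KO Stat3C values lay close together and well under the lowest Stat3C value (log2 -0.39 ± 0.07 SE, adjusted p = 0.0127). Mrpl46 missed the threshold narrowly, at -0.30 with an adjusted p of 0.0511, and Mrpl55 (bL31m) had -0.29 with 0.0656. Mrpl18 (uL18m), Mrpl40, Mrpl48 and Mrpl52 ran from -0.21 to -0.04.

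The small bacterial-type proteins held both extremes of the subunit. Mrpl34 (bL34m), on chromosome 8 at 71464959 to 71465747, had the lowest fold change of the 47. It stood at 1132, 1046 and 1111 normalised reads in Stat3C and at 819, 812 and 828 in Stim1KO Stat3C, so its mean fell by 25.3%. The Stim1KO Stat3C libraries were almost level and far below every Stat3C library (log2 -0.42 ± 0.06 SE, adjusted p = 0.00602). Mrpl36 (bL36m), on chromosome 13 at 73330988 to 73332178, had 1435, 1443 and 1548 against 1064, 1194 and 1304 (log2 -0.32 ± 0.08 SE, adjusted p = 0.0433), and 30 bases of its exons lie opposite Ndufs6.

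Mrpl33 (bL33m), a small protein whose bacterial form binds near the E-site tRNA, was the 1 member higher in Stim1KO Stat3C. It is on chromosome 5 at 31613939 to 31622644. Its values were 1698, 1911 and 1871 normalised reads in Stat3C and 2184, 2104 and 2273 in Stim1KO Stat3C, where every library lay above every Stat3C library and the mean was 19.7% higher (log2 0.26 ± 0.07 SE, adjusted p = 0.0364). Its exons share 107 bases with the gene model Gm43809 on the same strand, and the sources used here do not say how reads in that stretch were assigned. Leaving out 1 library lost this call for 5 of the 6 libraries, all but Stat3C replicate 2 (adjusted p up to 0.194 over all alternatives), with the fold change above 0 throughout. The other small proteins, Mrpl32 and Mrpl35, had -0.16 and -0.12 and were not called.

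**Figure D2:**
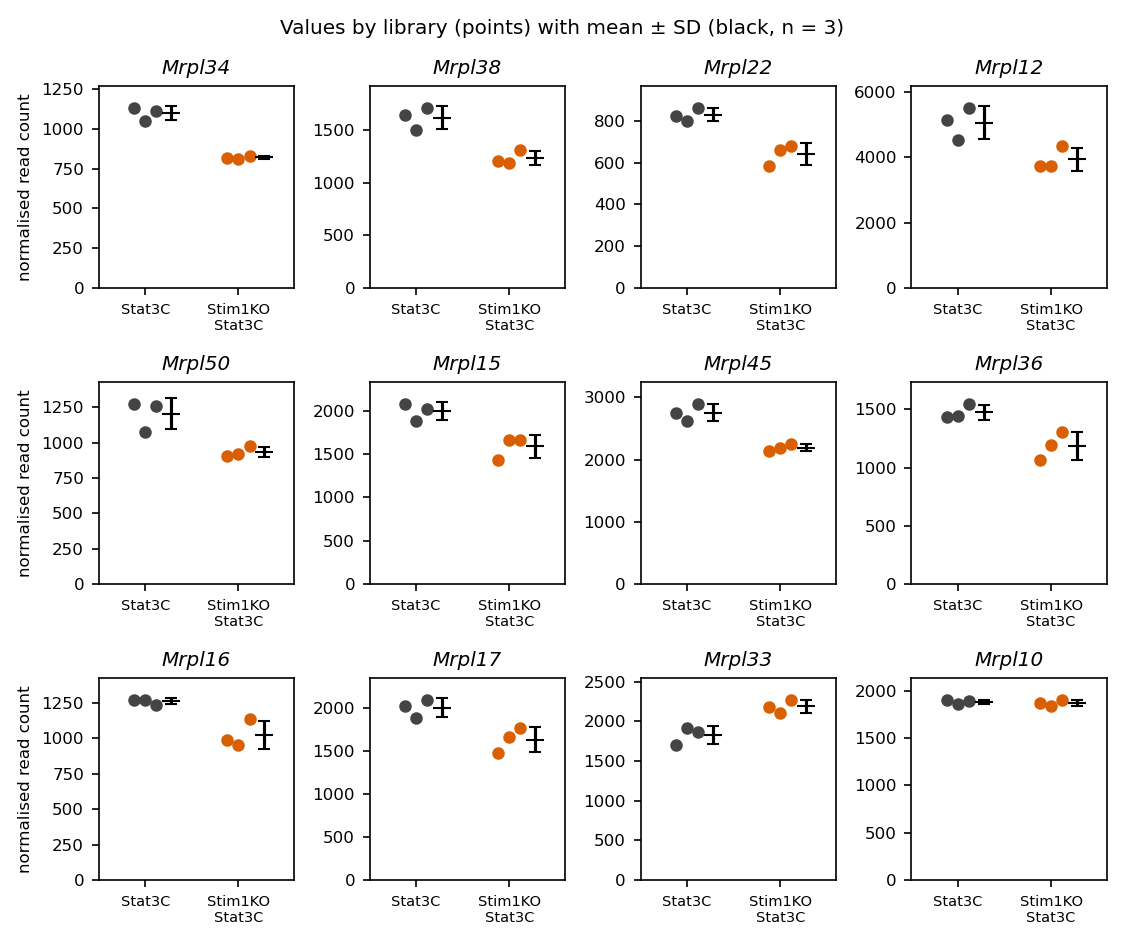
Normalised read count in each library (vertical axis, from 0) for 12 Mrpl genes, with Stat3C at left and Stim1KO Stat3C at right in each panel; points are libraries and black bars the mean ± SD (n = 3). In 10 panels the Stim1KO Stat3C points lie below all Stat3C points, for Mrpl33 they lie above, and for Mrpl10 they overlap.

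Among the 11 remaining mitochondria-specific proteins 4 were lower, Mrpl50, Mrpl37, Mrpl43 and Mrpl51, and the median of the 11 was -0.26. Mrpl50, on chromosome 4 at 49512596 to 49521093, had 1277, 1078 and 1259 normalised reads in Stat3C and 908, 924 and 978 in Stim1KO Stat3C. Stat3C replicate 2 was the low one of its group but stayed above all Stim1KO Stat3C libraries (log2 -0.36 ± 0.08 SE, adjusted p = 0.0269). Mrpl37 fell from 1985 ± 117 to 1617 ± 111 (SD, n = 3; log2 -0.30), Mrpl43 from 1234 ± 27.1 to 1021 ± 27.6 (-0.27) and Mrpl51 from 1986 ± 64.7 to 1649 ± 40.3 (-0.27). Exons of Mrpl43 share 385 bases with Twnk, the gene of the mitochondrial DNA helicase, on the opposite strand. Not called were Mrpl39, Mrpl41, Mrpl42, Mrpl44, Mrpl49, Mrpl53 and Mrpl54, from -0.31 for Mrpl53 to -0.07 for Mrpl41. The 2 bacterial-type members with other places in the subunit, Mrpl9 and Mrpl30, had -0.16 and -0.18.

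Both proteins of bacterial descent and those specific to mitochondria were among the lower genes. Of 30 bacterial-type members 9 were lower and 1 was higher, with a median of -0.23, and of 17 mitochondria-specific members 6 were lower, with a median of -0.26. Across the 47 genes the fold change had a Spearman correlation of 0.17 with the mean level and of -0.03 with transcript length, given as a description of genes measured in the same libraries. Members lay on 17 chromosomes, and 17 members shared exon bases with another annotated gene. The reads of these members are uncertain, since the handling of strand and of overlapping genes in counting is unknown. Mrpl53 (695 bases, Gm42688), Mrpl33 (107 bases, Gm43809) and Mrpl51 (87 bases, Mir3098) overlapped a gene on the same strand, which strand cannot tell apart.

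In 12 members the start lay within 1000 bases of the start of a protein gene on the other strand. The 11 such neighbours that could be tested had log2 fold changes of -0.28 to 0.23. An unadjusted p under 0.05 was found for 2 of them. Of all 11947 genes tested, 1677 were lower and 2036 higher at that cut. The lowest of these neighbours was Mrps11, a small subunit gene that begins 30 bases from Mrpl46, at -0.28 (adjusted p = 0.0673). Beside Mrpl50, Zfp189 begins 83 bases away and had -0.02, and beside Mrpl51, Ncapd2, a condensin subunit, begins 464 bases away and had 0.01 (adjusted p = 0.949 and 0.951). Cyb5rl, 120 bases from Mrpl37, had -0.09 (adjusted p = 0.822).

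Per kilobase of principal transcript the members spanned a wide range of levels. Mrpl52 and Mrpl33 had the most, and Mrpl47 and Mrpl32 the least, over both groups. In Stat3C, Mrpl52 stood at 4277, 4042 and 4233 normalised reads per kilobase, Mrpl33 at 3552, 3999 and 3914 and Mrpl12 at 3901, 3436 and 4192. The values of Mrpl12 overlapped those of both others, whereas Mrpl33 and Mrpl52 stayed apart. In Stim1KO Stat3C the order of the top pair was turned, with Mrpl33 at 4570, 4401 and 4755 and Mrpl52 at 3974, 4020 and 4183, while Mrpl12 was at 2847, 2826 and 3302. At the low end, Mrpl47 had 199, 169 and 204 normalised reads per kilobase in Stat3C and 154, 166 and 193 in Stim1KO Stat3C. Mrpl32 had 222, 205 and 217 in Stat3C, with 190, 191 and 196 in Stim1KO Stat3C, overlapping Mrpl48 in Stat3C. These levels rest on the length of 1 annotated transcript per gene, and on the assumption that it is the one expressed. The lengths ran from 418 bases for Mrpl52 to 7300 for Mrpl17. Mrpl33 had 478, Mrpl47 3364 and Mrpl32 3013, so the order at both ends depends on the assumed lengths.

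**Figure D3:**
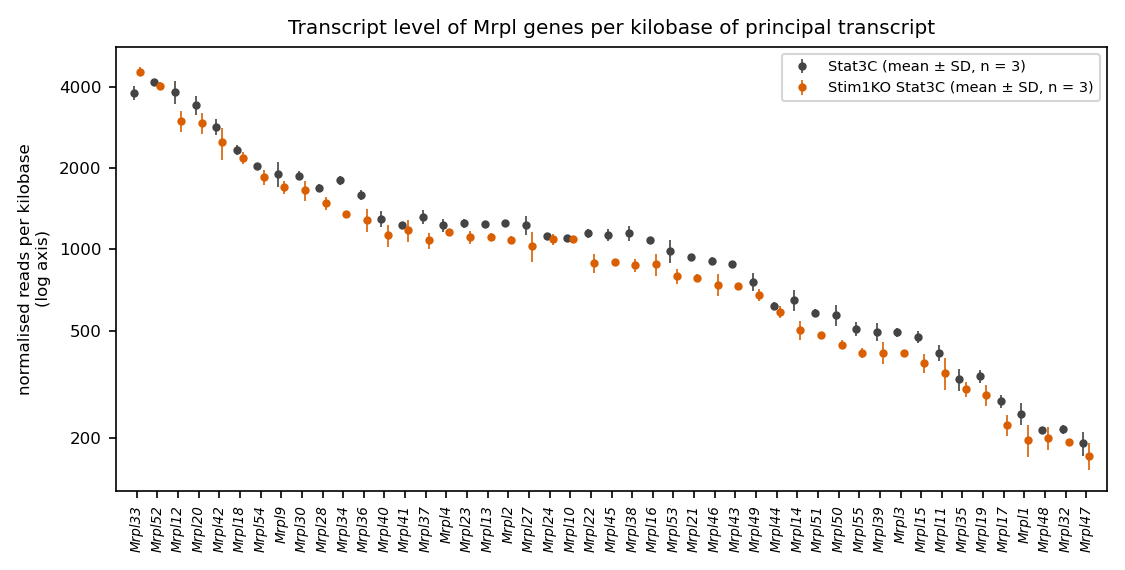
Normalised reads per kilobase of principal transcript (vertical log axis) for the 47 Mrpl genes (horizontal axis, ordered by level), as mean ± SD of 3 libraries in Stat3C (dark) and Stim1KO Stat3C (orange). Mrpl33 is the gene whose orange point stands clearly above its dark one, and most genes of every level have the orange point lower.

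Summed over the 47 genes, the subunit took 0.326%, 0.312% and 0.334% of all normalised reads in Stat3C, with 0.271%, 0.277% and 0.293% in Stim1KO Stat3C. The sums were 71821 ± 3206 and 62152 ± 3134 normalised reads (SD, n = 3), 13.5% lower in Stim1KO Stat3C with no overlap between groups. The libraries of a group were not level. Against the Stat3C mean, the median member stood at 0.02, -0.06 and 0.05 on the log2 scale in Stat3C and at -0.30, -0.24 and -0.14 in Stim1KO Stat3C, while the median over all genes stayed within 0.01 of 0 in every library. Stim1KO Stat3C replicate 1 held the lowest of the 6 values for 31 members, replicate 2 for 12 and replicate 3 for 3. Within that group, replicates 1, 2 and 3 were the lowest for 31, 13 and 3 members, against 35.2%, 29.5% and 35.2% of all genes. Replicate 3 was the highest of that group for 39 members. The share over all genes was not computed for the lowest of 6 values or for the highest of the group. In Stat3C, replicate 2 was the lowest of its group for 35 members, where 38.6% of all genes had their lowest value. The members therefore also varied together between libraries of 1 genotype. The median coefficient of variation was 5.11% in Stat3C and 6.35% in Stim1KO Stat3C.

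**Figure D4:**
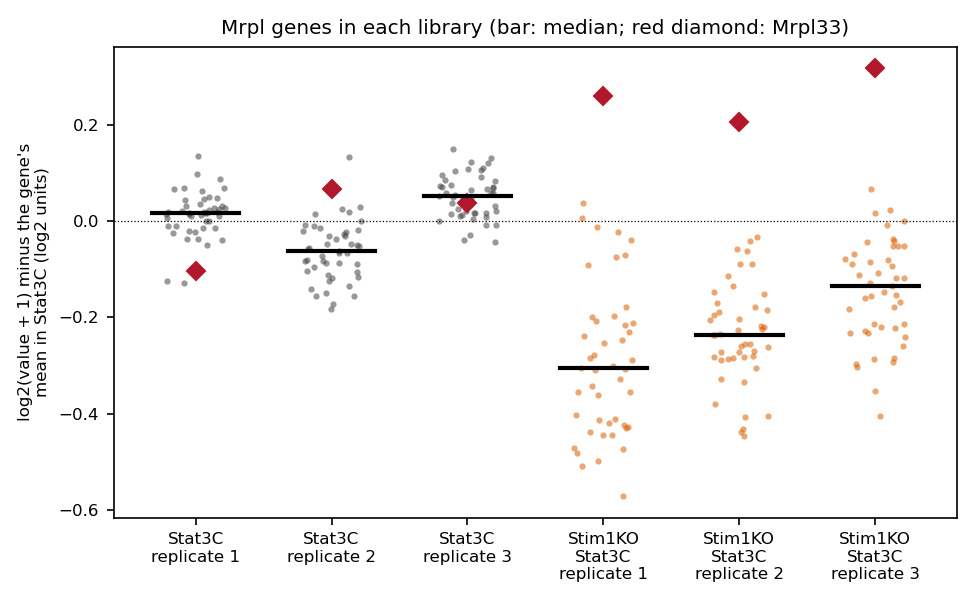
Log2 difference of each Mrpl gene from its Stat3C mean (vertical axis, log2 units) in each of the 6 libraries (horizontal axis); points are genes, black bars the median and red diamonds Mrpl33. Medians lie between -0.06 and 0.05 in Stat3C and between -0.30 and -0.14 in Stim1KO Stat3C, with Mrpl33 above all other genes in each Stim1KO Stat3C library.

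Replicate 3 of each group was the library with high Xist and almost no Ddx3y. Within replicates 1 and 2 the median member had -0.24, with 46 of 47 below 0, and between the 2 replicates 3 it had -0.17, with 43 of 47 below 0. Mrpl33 was at 0.25 and 0.28 in these comparisons, Mrpl34 at -0.42 in both, and Mrpl45 at -0.31 and -0.37. From replicates 1 and 2 alone limma called 0 members, and over all genes 16 lower and 67 higher. At an unadjusted p under 0.05, 25 members were lower and 1 higher in that fit. The share over all genes at the unadjusted cut was not computed for it. No other tool was run on these libraries alone. With the Xist level as a covariate in all 6 libraries, 18 members were lower and 1 was higher, with a median of -0.23. Over all genes, 633 were lower and 1105 higher with that covariate.

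Markers of other cells moved with the comparison. The sum of the 6 B cell markers was 134 to 381 normalised reads in Stat3C and 32.2 to 63.0 in Stim1KO Stat3C, with 2 of the 6 lower, among them Cd79a, and Ms4a1 at 0 in every Stim1KO Stat3C library. Both CD8 markers, Cd8a and Cd8b1, were lower (sum 277 to 453 against 111 to 159). The 5 myeloid markers summed to 133 to 279 against 334 to 402, a rise carried by Cd68 alone, which was higher (mean 131 against 359). The means of the other 4 were lower in Stim1KO Stat3C without passing or entering the test: Lyz2 9.43 against 0.716, Csf1r 3.07 against 0, Itgam 31.7 against 8.13 and Cd14 20.1 against 2.98. All 4 were highest in Stat3C replicate 2. The 4 NK cell markers summed to 8.72 to 18.1 against 4.30 to 13.7. Sox13 was the one gamma-delta T cell marker with a row, at 23.3 to 37.3 against 6.85 to 23.9. All of these sums are small beside the 42369 to 62580 of the CD4 T cell markers, and their part in the lower Mrpl values was not tested. That of the lower Th17 markers was not tested either.

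Some other genes of mitochondrial translation were lower, and most were not called. Of 29 genes taken by an Mrps symbol alone, not all of which belong to the small subunit, 4 were lower (4.96% of all genes tested were). A log2 fold change below 0 was found for 28 of them, against 50.2% of all genes tested, with a median of -0.19. Their summed level was 38223 ± 1968 normalised reads in Stat3C and 33626 ± 1033 in Stim1KO Stat3C (SD, n = 3). The called genes were Mrps12 (-0.30), whose protein forms part of the decoding centre, Mrps26 (-0.29), Mrps27 (-0.26) and Mrps7 (-0.25), with adjusted p-values of 0.0115 to 0.0487. Leaving out 1 library gave 0 Mrps calls without Stat3C replicate 1, 11 without Stat3C replicate 2, 1 without Stat3C replicate 3, and 2 and 1 without Stim1KO Stat3C replicates 1 and 2. Whether the 2 subunits differed was not tested. Mrps18a and Mrps30, counted here by symbol, are large subunit proteins. They belong to 5 proteins of the large subunit that go by other symbols, of which 1 was lower: Gadd45gip1 (CRIF1), needed for inserting new chains into the inner membrane, fell from 1736 ± 57.4 to 1381 ± 59.6 normalised reads (SD, n = 3; log2 -0.33, adjusted p = 0.0123). That call was lost without Stat3C replicate 1, Stat3C replicate 3 or Stim1KO Stat3C replicate 2. The other 4, Mrp63, Ict1, Mrps18a and Mrps30, had -0.25 to -0.12.

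The translation factors that were lower act in elongation. Of 12 translation factors 3 were lower: Tufm, the EF-Tu that brings aminoacyl-tRNA (4360 ± 220 to 3712 ± 71.3, SD, n = 3; log2 -0.23), Tsfm, its exchange factor (1088 ± 87.7 to 829 ± 32.8; -0.39), and Gfm1, which drives translocation (3148 ± 259 to 2431 ± 139; -0.37). Their adjusted p-values were 0.0287, 0.0168 and 0.0177, and the median of the 12 was -0.06. Of 17 mitochondrial aminoacyl-tRNA synthetases, which load tRNA with amino acids, 4 were lower, among them Yars2 (-0.53), Mars2 (-0.46) and Iars2 (-0.20), and the median was -0.20. No translation factor and no synthetase stayed called when Stat3C replicate 1, Stat3C replicate 3, Stim1KO Stat3C replicate 1 or Stim1KO Stat3C replicate 2 was left out. In these fits 8 to 10 of the 29 were lower at an unadjusted p under 0.05, and the share over all genes was not computed. Without Stim1KO Stat3C replicate 3, 2 translation factors (Tsfm and Gfm1) and 2 synthetases (Yars2 and Mars2) were called.

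Unadjusted counts in the next lists stand beside 1677 lower and 2036 higher of all 11947 genes tested by limma. Of 20 genes for assembly of the large subunit and modification of its 16S rRNA, limma called 0, with 5 lower at an unadjusted p under 0.05, edgeR 0 and DESeq2 2, and 17 had a log2 fold change below 0 (median -0.12). The most abundant, Afg3l2, a protease that trims Mrpl32, and the RNA helicase Dhx30 had -0.06 and -0.13. Of 8 genes of mitochondrial DNA transcription limma and edgeR called 0 and DESeq2 1 lower, with 4 lower by limma at an unadjusted p under 0.05 and a median of -0.13. Lrpprc, which stabilises mitochondrial mRNA, had -0.25 (adjusted p = 0.0506), and Tfam, which packages mitochondrial DNA, -0.10. Of 10 regulators of mitochondrial gene sets limma called 0 in either direction, edgeR, DESeq2 and voom 0 lower, with 1 higher at an unadjusted p under 0.05 (Gabpb2, 0.19, chosen after its value was seen), and the median was 0.00. Hcfc1, a cofactor of several such factors, and Myc, which raises ribosome production, had 0.01 and -0.01, and Ppargc1a is listed at 0 in every library.

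Cytosolic ribosomal proteins of the large subunit were also mostly below 0. Of 46 Rpl genes tested, 44 had a log2 fold change below 0, against 50.2% of all genes tested, with a median of -0.11. The summed level fell by 7.18%. Of the 46, 3 were called lower, Rpl36 (-0.31), Rplp2 (-0.24) and Rpl18 (-0.20), where 4.96% of all genes tested were. The list was taken by symbol and is partial: Rpl36al, which it leaves out, was also called lower. The Mrpl, Mrps and Rpl lists come from the same 6 libraries, and the differences between their medians were not tested.

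**Figure D5:**
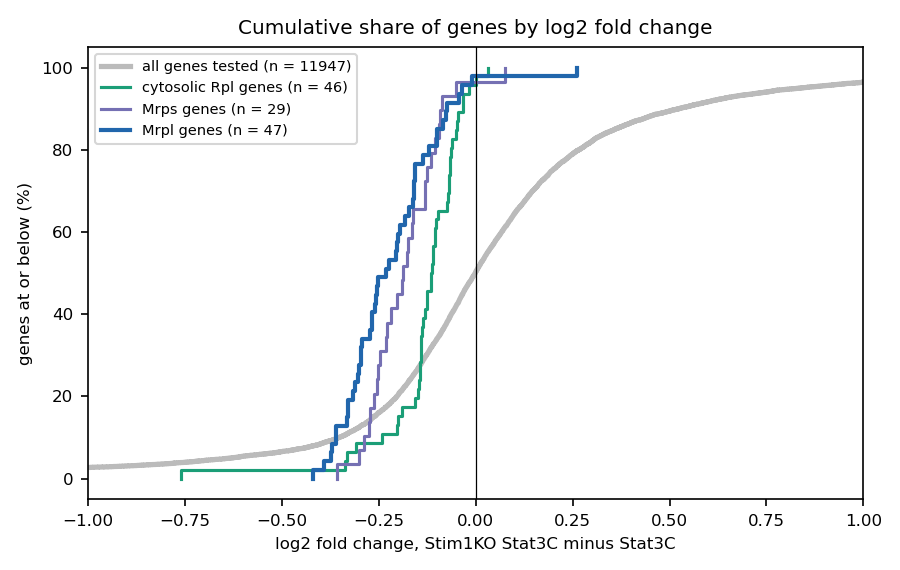
Cumulative share of genes (vertical axis, %) by log2 fold change, Stim1KO Stat3C minus Stat3C (horizontal axis, log2 units, drawn from -1 to 1), for all 11947 genes tested, 46 Rpl, 29 Mrps and 47 Mrpl genes. The Mrpl curve crosses its middle at -0.23, the Mrps curve at -0.19, the Rpl curve at -0.11 and the curve of all genes at 0.00.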

How the data were processed

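Libraries were made with a stranded kit from 100 ng of poly(A) RNA, per the labels. TopHat2 2.1.1, HTSeq 0.11.1, DESeq2 1.22.2 and mm10 appear in the submitters' processing notes, without their steps. The deposited table holds a signal per gene and library, which is a read count over a size factor. Values above 0 were whole multiples of 1 step per library (100% of them, to within 0.01), so reads could be recovered, although the step of Stim1KO Stat3C replicate 3 (0.995) cannot be told from rounding. A value of 0 allows up to 3 reads, 1.30 to 4.11 normalised reads, for counting error only. Of 23420 rows, 27 named as dates (at most 0.217% of reads) were left out.

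Rows with a mean of at least 10 (11947) were fitted with limma 3.58.1 (R 4.3.3) on log2(value + 1) with a variance trend, two-sided, with no covariate, and Benjamini-Hochberg adjusted; a gene is called at an adjusted p under 0.05. The understated change of low genes is small here, as every member had at least 295.8 normalised reads in each library. Recovered reads went through edgeR 4.0.16, DESeq2 1.42.0 and voom as alternatives, beside other pseudocounts, filters, scalings, variance priors, library weights, an Xist covariate, thinned reads and libraries left out. The script was tested on simulated data. Replicates were numbered in accession order. Replicates of a group differed beyond counting noise (chi-square per degree of freedom 8.70 to 53.8), and none was counted as a duplicate.

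The members and lists were chosen with earlier results of these data known. Library values are given for the 10 largest changes among called members, the member called in the opposite direction, the 2 highest and 2 lowest levels per length and the member nearest the filter; from each list the called genes (at most 4), or else the 2 of highest mean. Mrpl10, the neighbouring genes and the factors named by the motifs fall outside that rule. Positions and transcript lengths are from GENCODE mouse release 21 (GRCm38, principal transcripts), and promoters from RefSeq, the first listed per gene. Some genes of the lists are not reported here by name.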

Additional observations from a re-analysis of the deposited data

How the results depend on the processing

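Over 24 alternatives the median log2 fold change of the 47 Mrpl genes stayed between -0.29 and -0.18, within the replicate spread of 0.073 of its reported value, and 45 members, among them all 15 called lower, kept a log2 fold change below 0. The 15 lower Mrpl calls became 4 with limma without a trend, 32 with library quality weights, 0 with replicates 1 and 2 of each group alone (chosen after seeing the data) and 2 to 26 when each library was left out; in 16 of the 24 the count was within 1.5 times of 15. The 1 higher call, Mrpl33, became 0 without a trend, with replicates 1 and 2 alone and with edgeR without Stim1KO Stat3C replicate 3 (also chosen later), and 0 to 1 with libraries left out. The 4 lower Mrps calls became 2 with no filter on low values, 1 without a trend, 8 with DESeq2, 2 with voom, 18 with library quality weights, 0 with replicates 1 and 2 alone and 0 to 11 with libraries left out. The cause was not tested. In each fit with 1 library left out, lower calls over all genes moved in the same direction as the lower Mrpl calls. Mrpl34 and Mrpl45 lost their call in 1 alternative each, and no member was called in all 24. No paired analysis was possible because the replicate numbers follow accession order and pair nothing. Every member was well above the limit of detection, as the lowest member value was 295.8 against at most 4.11 for 3 reads. Depth nevertheless went with genotype. With reads thinned to equal depth, limma called 12 members lower and 1 higher, with a median of -0.23. Over all genes it called 580 lower and 931 higher on the thinned reads.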
